A study of Mus musculus with 8 samples.

Results

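The genes described here encode 3 families of core splicing factors: the SR proteins (symbols beginning with Srsf), the heterogeneous nuclear ribonucleoproteins (Hnrnp) and the small nuclear ribonucleoprotein proteins (Snrp). They were chosen by gene symbol alone, leaving out 3 symbols that carry a pseudogene suffix (Hnrnpa1l2-ps, Hnrnpa1l2-ps2 and Srsf3-ps). The rule found 44 genes of 19558 listed: 11 SR, 20 hnRNP and 13 snRNP genes, with 309 of the 74764 listed transcripts. Annotated type was not part of the rule, and 1 of the snRNP transcripts is annotated as a processed pseudogene. The RNA came from hippocampus of wild-type C57BL/6 KP mice at postnatal day 40. The 4 KU55933 samples came from mice given KU55933, a small-molecule inhibitor of the DNA damage kinase ATM, at 7.5 mg/kg through the nose under anaesthesia, and the 4 vehicle samples from mice given the vehicle, 4% DMSO in saline, whose label carries the same dose figure. Both groups are wild type and carry no transgene, and the labels do not state whether KU55933 was given in DMSO. How long after dosing the tissue was taken is not given in the sources used here, and the library protocol text names hypothalamus and prefrontal cortex as input although every sample is labelled hippocampus. The comparison asks how blocking ATM changed RNA levels in this tissue.

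SR proteins bind enhancer sequences in exons, recruit the spliceosome to nearby splice sites and are switched by phosphorylation of their arginine-serine domains. The hnRNPs coat nascent transcripts and often repress the splice sites they cover, while the Sm proteins form a ring on the small nuclear RNAs and further proteins are particular to the U1 or the U2 particle. Several SR and hnRNP genes regulate themselves by leaving an intron in the transcript or by including an exon that sends it to nonsense-mediated decay, so that the split of a gene's RNA among its isoforms matters as much as its total.

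Each library held between 34190440 and 46630341 estimated counts, and the 4 KU55933 libraries (34190440 to 37499003) were all shallower than the 4 vehicle libraries (40586998 to 46630341). All 12 hippocampal neuron markers on the list were present, with a summed level of 1432 to 1560 CPM (counts relative to a library's scaled total) in vehicle and 1271 to 1482 CPM in KU55933. Of these markers, 3 were called lower by edgeR (Wfs1, Pou3f1 and Rgs14), and 2 were higher at an unadjusted p under 0.05. DESeq2 called 2 higher and 3 lower. Of 8 markers of subcortical neurons, 4 were called higher (Slc17a6, Tcf7l2, Rora and Esr1), with a median of 0.48 log2, and they summed to 146 to 159 CPM in vehicle and to 234, 197, 147 and 214 CPM in KU55933. No marker of either list was called with the GC and length offset described below, where 1 hippocampal and 5 subcortical markers were higher and 2 hippocampal markers lower at an unadjusted p under 0.05. Markers of the choroid plexus, the epithelium that lines the ventricles, summed to 1908 and 1789.6 CPM in KU55933 replicates 1 and 2 and to 170 to 334 CPM in the other 6 libraries, and none of the 10 was at 0. Vehicle libraries differed among themselves in oligodendrocyte markers, which summed to 7993, 3576, 5711 and 4077 CPM in vehicle replicates 1 to 4. In KU55933 replicates 1 to 4 these summed to 4276, 4235, 5734 and 5716 CPM. Replicate 1 of KU55933 also held the smallest share of counts on transcripts annotated as retaining an intron, 2.07% over all genes against 2.77% to 4.16% in the other 7 libraries. The part of these features in the results below was not tested. Calls of member genes are also given without the libraries concerned. No test of single transcripts or of their share within a gene left out both KU55933 replicates 1 and 2. In bulk tissue, fewer cells of a type and less RNA per cell cannot be told apart.

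Per transcript length, the families covered a wide range of levels in vehicle hippocampus. Snrpn, which encodes the neuronal Sm protein SmN and is imprinted, was highest at 903 ± 54.7 TPM (transcript abundance scaled by length and library total; SD, n = 4), followed by Hnrnpa2b1, an RNA-binding protein that also acts in RNA transport, at 826 ± 23.2 TPM. The next genes were Srsf5 at 439 ± 20.9 TPM and Hnrnpk, which binds cytidine-rich RNA, at 406 ± 11 TPM. Srsf12, at 27.0 ± 1.81 TPM, was the lowest of the 43 genes with enough counts to test, next to Snrpb2 at 28.6 ± 1.56 TPM and Snrpf at 29.3 ± 7.84 TPM, and these 3 did not differ beyond their spread. Snrpert, with 0 to 2 counts in each library, was not tested, and neither was the snRNP transcript annotated as a processed pseudogene. Among the tested genes the estimated counts per library ran from 218 (Snrpf) to 34118, so that the lowest genes carried the most counting error.

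Of the 43 tested genes, 11 changed at an adjusted p under 0.05 in edgeR's quasi-likelihood test, 5 higher and 6 lower in KU55933 hippocampus. That is 25.6% of the members against 21.6% of all 15481 genes tested. The higher genes were 11.6% of the members against 6.92% of all genes, and the lower genes 14% against 14.6%, so that the shares lay near the background. The higher genes were the SR genes Srsf3 and Srsf10 and the hnRNP genes Hnrnpc, Hnrnph2 and Hnrnph3, and the lower genes were Srsf4, Hnrnpm and the snRNP genes Snrpa, Snrpb, Snrpc and Snrpf. No snRNP gene was called higher by edgeR (1 at an unadjusted p under 0.05), while DESeq2 called 1, Snrpb2. The median log2 difference was 0.02 for SR, 0.09 for hnRNP and -0.05 for snRNP genes, against 0.01 over all genes tested. The 32 uncalled members lay between -0.29 and 0.24 on the log2 scale, with adjusted p from 0.0691 to 0.963. All 4 KU55933 libraries lay above all 4 vehicle libraries in 8 members, 18.6% against 10.7% of all genes tested, and below them in 7 members, 16.3% against 15.9%.

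**Figure D1:**
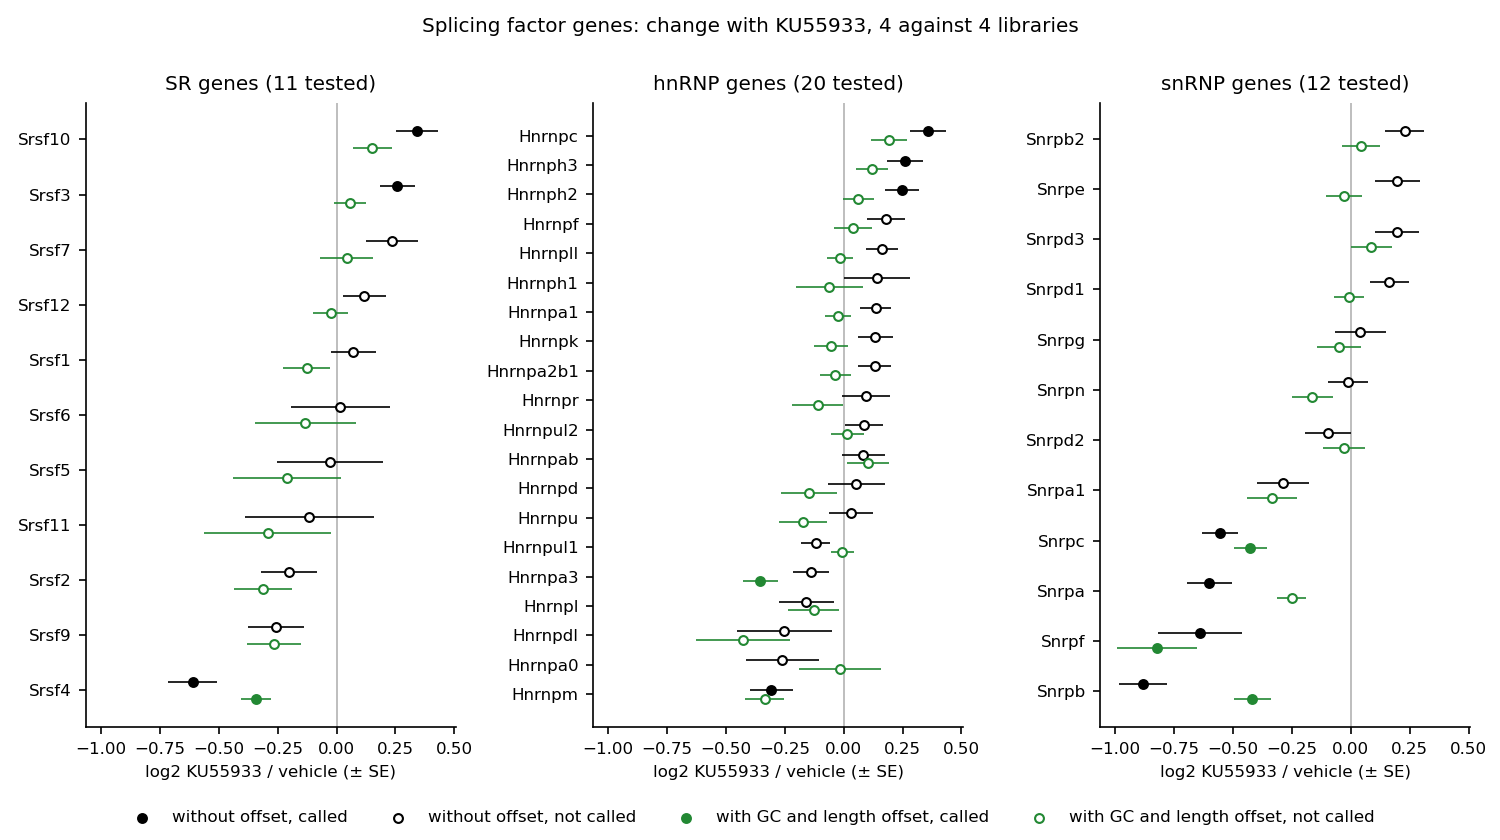
The log2 difference between KU55933 and vehicle is plotted with its standard error for the 43 tested members by family, without (black) and with (green) the GC and length offset, and filled points are called. Without the offset the called genes span -0.88 (Snrpb) to 0.36 (Hnrnpc), the 4 called snRNP genes all lie below 0, and with the offset no called gene lies above 0.

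The changes followed base composition across the members. Spearman's rho between a gene's log2 difference and the GC content of its transcripts was -0.56 across the 43 members, against -0.71 across 15470 genes, where the genes share their libraries and are not independent. The 5 higher members had transcripts of 40.5% to 45.4% GC (median 42.7%) and the 6 lower members 41.3% to 57.8% (median 54.6%). With GC content and length fitted per library as an offset, 0 members were called higher and 5 lower, 11.6% of the members against 1.99% of all genes (higher 0.691%, lower 1.3%). The 5 were Srsf4, Snrpb, Snrpc, Snrpf and Hnrnpa3, the last of which was not called without the offset. At an unadjusted p under 0.05, 1 member was higher with the offset, and every one of the 5 genes called higher without it kept a positive difference of 0.06 to 0.19 log2. Snrpa and Hnrnpm kept differences of -0.25 and -0.34 log2 with adjusted p of 0.0711 and 0.0728. The median log2 difference with the offset was -0.05 over the members and 0.01 over all genes. Whether base composition entered through library preparation or through the tissue was not tested.

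**Figure D2:**
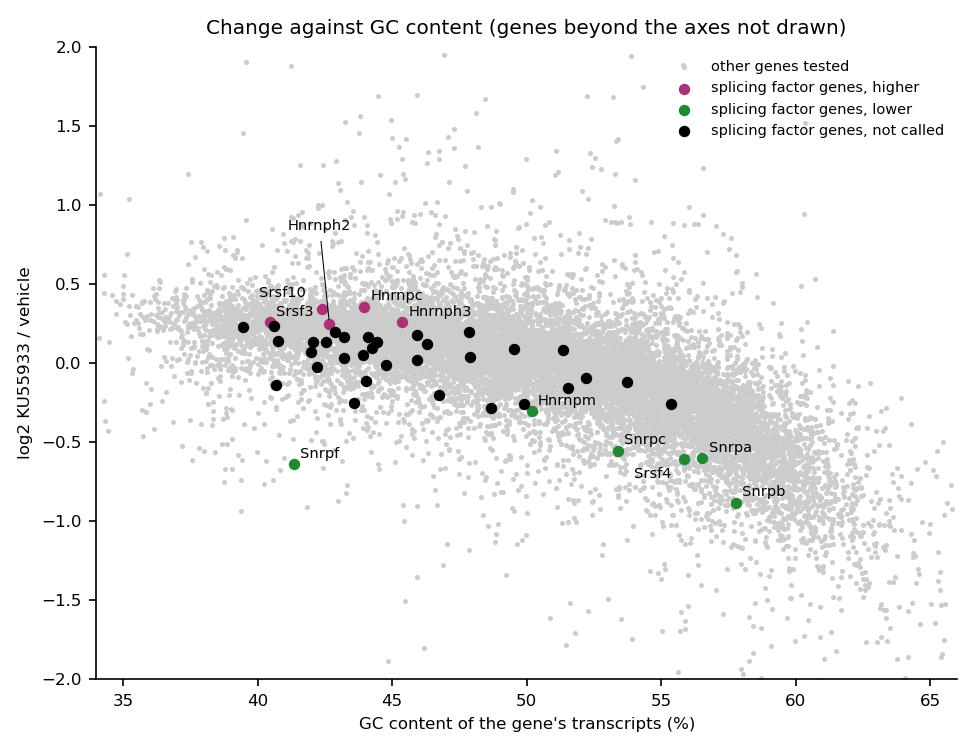
Log2 difference between KU55933 and vehicle against transcript GC content in percent, with the 43 members colored by call over all genes tested (grey; genes beyond the axes are not drawn). Members above about 50% GC lie mostly below 0, and Snrpf, at 41.3% GC, lies below 0 while genes of its composition lie mostly above.

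The calls made with the offset depended on which libraries were included, among the members and over all genes. The number of members called lower with the offset was 0 without vehicle replicate 4, KU55933 replicate 2 or KU55933 replicate 3, and 2 without vehicle replicate 2, vehicle replicate 3, KU55933 replicate 1 or KU55933 replicate 4. Snrpc was among the 2 in each of those 4 cases. Without vehicle replicate 1, 5 members were called lower. Over all genes the 308 calls with the offset became 758 without vehicle replicate 1 and 78 to 223 without any other library. Without the offset, Hnrnpc, Srsf4, Snrpa, Snrpb and Snrpc were called whichever library was left out. With both choroid-rich libraries left out, Srsf4, Snrpa, Snrpb and Snrpc were called lower and Hnrnpc and Srsf7 higher, 6 members of 43 against 6.91% of all genes (higher 0.665%, lower 6.24%).

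Among the SR genes, 2 rose, 1 fell and 8 did not pass the test, which is 27.3% called against 21.6% of all genes. Srsf3, whose protein couples splicing with RNA export and is the smallest of the family, was at 182, 162, 155 and 164 CPM in vehicle replicates 1 to 4 and at 192, 199, 189.9 and 212 CPM in KU55933 replicates 1 to 4. No KU55933 library overlapped a vehicle library. It rose by 0.26 ± 0.07 log2 (SE; adjusted p = 0.0311), 1.20-fold, and its difference with the offset was 0.06 log2 (adjusted p = 0.719). Srsf10, a splicing factor whose repressor activity is set by its dephosphorylation in stress, was at 92.2, 73.7, 74.5 and 74.0 CPM in vehicle and at 92.9, 102, 98.6 and 105 CPM in KU55933. Vehicle replicate 1 stood close to the KU55933 libraries while the other 3 vehicle libraries were well below them. Srsf10 rose 1.27-fold, by 0.34 ± 0.09 log2 (adjusted p = 0.0208; 0.399 with the offset). Both differences stayed positive whichever library was left out, at 0.23 to 0.31 log2 for Srsf3 and 0.31 to 0.43 log2 for Srsf10. Neither call held in all of these runs. Over all genes the 3338 calls became 1597 to 2004 without vehicle replicate 2, 3 or 4 or KU55933 replicate 2. Without KU55933 replicate 4 they became 3928. Srsf3 lost its call without vehicle replicate 2, 3 or 4 or KU55933 replicate 2 or 4 (adjusted p 0.0502 to 0.106), and Srsf10 lost its call without vehicle replicate 2, 3 or 4 or KU55933 replicate 2 (0.0532 to 0.0729).

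Srsf4, a larger SR protein with a long arginine-serine domain, fell in KU55933 hippocampus. It was at 46.9, 54.6, 57.2 and 55.8 CPM in vehicle and at 30.4, 32.2, 36.8 and 41.0 CPM in KU55933, with a clear gap between the groups. The change was -0.61 ± 0.10 log2 (adjusted p = 0.00291), 1.53-fold lower, and -0.34 ± 0.06 log2 with the offset (adjusted p = 0.031). Its coding isoform ENSMUST00000053819 fell by 0.75 ± 0.12 on the log2 scale (adjusted p = 0.0103), a call that was lost with the offset (adjusted p = 0.519).

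**Figure D3:**
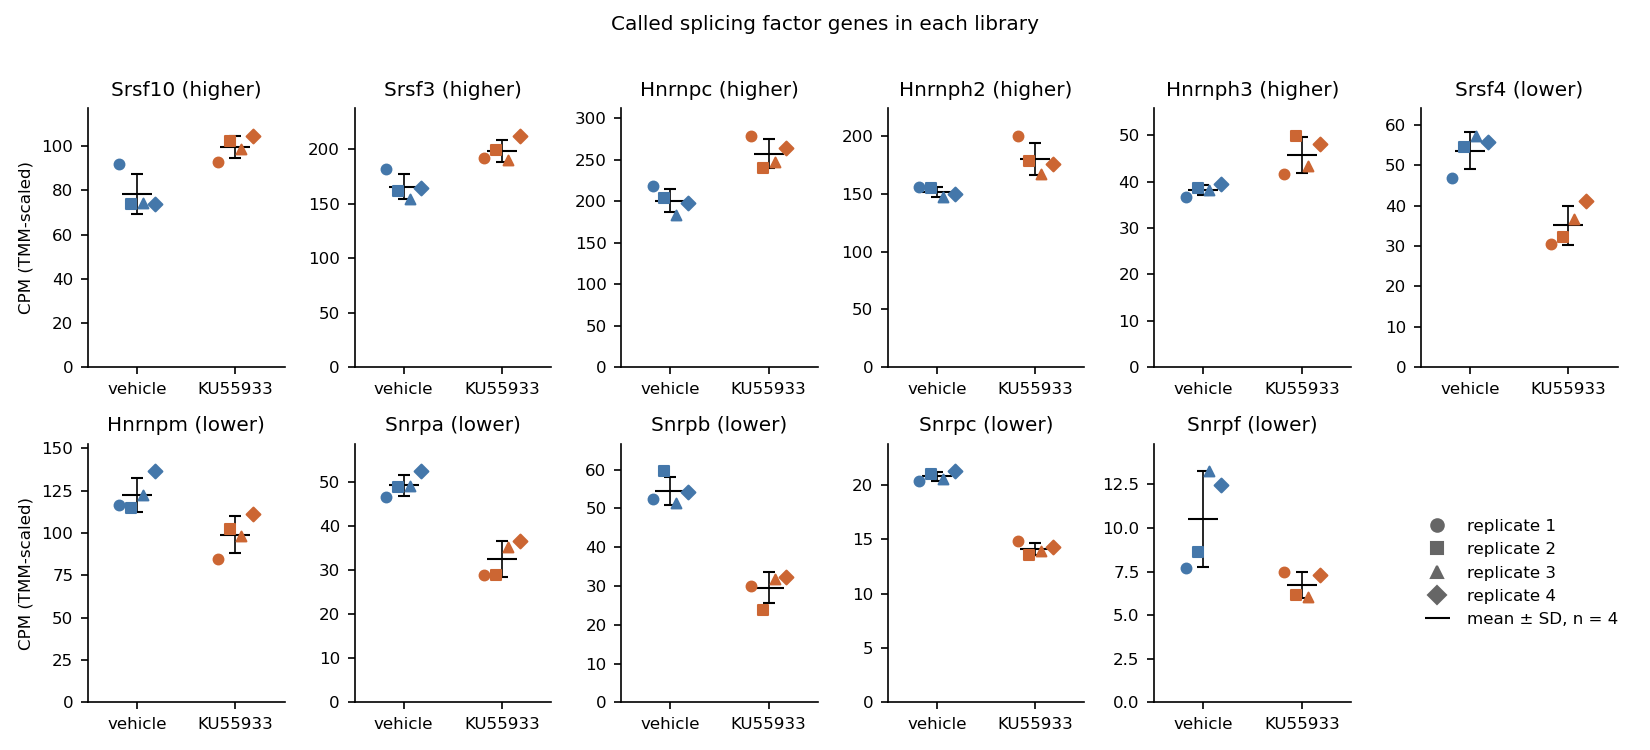
CPM of the 11 called members in each vehicle and KU55933 library, with group mean and SD (n = 4 each). The groups do not overlap in any of the 11, and the gap is narrowest for Srsf10 (92.2 against 92.9 CPM) and Snrpf (7.72 against 7.49 CPM).

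The most abundant SR gene did not change in total, but its libraries disagreed. Srsf5, an SR protein first described in regenerating rat liver, was at 301, 313, 327 and 315 CPM in vehicle and at 163.5, 332, 337 and 400.0 CPM in KU55933. Replicate 1 of KU55933 lay far below all vehicle libraries and the other 3 lay above them. The difference was -0.03 ± 0.23 log2 (adjusted p = 0.944), and 0.18 log2 without KU55933 replicate 1. Srsf6, a regulator of alternative exons such as those of tau, was at 121, 140.4, 152 and 161 CPM in vehicle and at 86.6, 166, 142 and 186 CPM in KU55933, again with replicate 1 lowest, and differed by 0.02 ± 0.21 log2 (adjusted p = 0.963). Srsf11, an SR-like partner of U2AF, also had its lowest level, 95.2 CPM, in KU55933 replicate 1, against 117 to 212 CPM in vehicle.

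A large part of SR RNA was assigned to isoforms that retain an intron. Of the counts on the 11 SR genes, 32.1%, 33.9%, 34.3% and 34.7% were assigned to such transcripts in vehicle replicates 1 to 4 and 19.5%, 38.8%, 36.4% and 40.5% in KU55933 replicates 1 to 4. The shares were 33.7% ± 1.13 and 33.8% ± 9.70 (SD, n = 4 each), and 38.6% ± 2.07 in the 3 KU55933 libraries other than replicate 1. The hnRNP genes held far smaller shares, 4.4% to 5.33% in vehicle and 2.45%, 6.25%, 5.48% and 6.23% in KU55933, and the snRNP genes held 1.22% to 1.61% in vehicle and 1.07%, 2.27%, 1.74% and 1.95% in KU55933. In all 3 families replicate 1 of KU55933 was lowest of the 8 libraries and the other 3 KU55933 libraries were above every vehicle library.

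**Figure D4:**
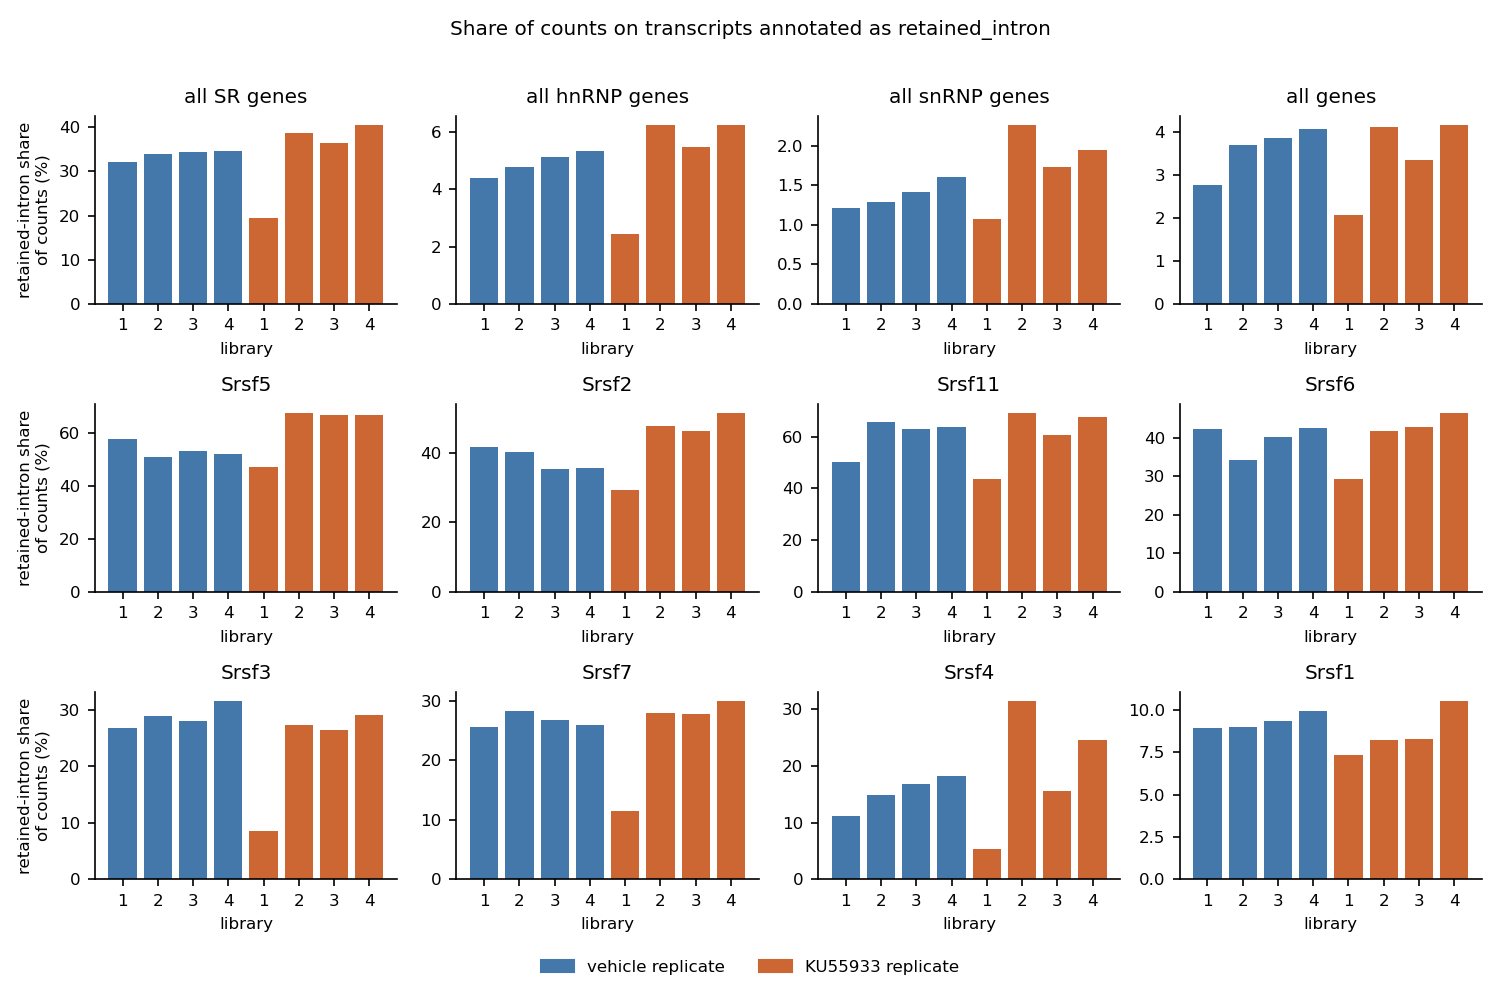
Bars give the share of counts on transcripts annotated as retaining an intron, in percent, for each of the 4 vehicle and 4 KU55933 libraries, by family, over all genes and for the 8 SR genes with such transcripts. KU55933 replicate 1 is lowest in every panel, and the SR genes hold the largest share of the 3 families (19.5% to 40.5%).

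Within the SR family the low share in KU55933 replicate 1 recurred gene by gene, while the high share of the other 3 held in few genes. Replicate 1 of KU55933 had the lowest share of the 8 libraries in 8 of 8 SR genes with such transcripts, and in all 7 of them whose mean share was at least 10%. Among 1769 genes outside the 3 families with a mean share of at least 10%, it was lowest in 62.0%. The other 3 KU55933 libraries lay above all vehicle libraries in 2 of the 7 SR genes, Srsf5 and Srsf2, against 19.0% of the outside genes. At the same minimum share, replicate 1 was lowest in 4 of 4 hnRNP genes and in 2 of 4 snRNP genes. The other 3 lay above all vehicle libraries in 1 of these hnRNP genes and in 2 of these snRNP genes. In Srsf5 the retained-intron share was 57.8%, 51.1%, 53.2% and 52.1% in vehicle and 47.1%, 67.8%, 66.8% and 67.0% in KU55933. In Srsf2, an SR protein essential for many exons, it was 41.7%, 40.2%, 35.4% and 35.6% in vehicle and 29.2%, 47.9%, 46.3% and 51.6% in KU55933. In the other SR genes with such transcripts the 3 libraries overlapped the vehicle range, as in Srsf3, where KU55933 replicate 1 was at 8.49% and the others at 27.4%, 26.5% and 29.1%, against 26.8% to 31.6% in vehicle. Of 20 SR retained-intron transcripts tested singly for their level, 0 were called by edgeR or limma, and 1 was lower at an unadjusted p under 0.05. Over all genes, edgeR called 66 of 10256 retained-intron transcripts higher and 168 lower, so that 0 of 20 does not set the SR genes apart. In edgeR's test of share within the gene, 2.15% of all transcripts were called lower. Of the 20 SR transcripts, 1 was called lower in its share, a scarce Srsf1 transcript, ENSMUST00000171976. It held 0.347%, 0.491%, 1.34% and 1.62% of the gene's counts in vehicle and 0.0808%, 0.202%, 0.221% and 0.354% in KU55933, where vehicle replicate 1 overlapped the KU55933 libraries (adjusted p = 0.0468 in edgeR and 0.0157 in limma, or 0.196 in limma with the GC correction).

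The introns concerned are shown at their edges, because reads across these edges separate the isoform that keeps the intron from the spliced coding isoform. In Srsf5 (chromosome 12, plus strand) the abundant retained-intron transcript ENSMUST00000153056 keeps intron 5 of 7, 1229 bases between coding exons. In Srsf2 (chromosome 11, minus strand) ENSMUST00000138484 keeps intron 2 of 2, 1059 bases that lie outside the coding part. Capitals mark intron and lower case exon bases, from the GENCODE M21 transcripts.
Srsf5 spliced junction: agagtcagctggcaggatctcaaagatttc
Srsf5 exon into kept intron: agagtcagctggcagGTTTGTTGAAATACA
Srsf5 kept intron into exon: TTGTCTTGTGTTAAGgatctcaaagatttc
Srsf2 spliced junction: cttcctaagaaaatgatgaatcggcaagcg
Srsf2 exon into kept intron: cttcctaagaaaatgGTAATGTCTGCGGGA
Srsf2 kept intron into exon: TCTTTTCAAACCTAGatgaatcggcaagcg

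The retained-intron transcript of Srsf5 was at 165, 149.6, 162 and 150 CPM in vehicle and at 71.6, 208, 211 and 250.4 CPM in KU55933. Replicate 1 lay below and the other 3 above every vehicle library, and the test over all 4 gave 0.21 ± 0.32 log2 (adjusted p = 0.801). The coding isoform ENSMUST00000094693, the spliced partner shown above, was at 57.1, 81.3, 80.7 and 80.1 CPM in vehicle and at 50.4, 58.9, 58.1 and 69.7 CPM in KU55933. Vehicle replicate 1 sat among the KU55933 libraries, and the isoform was not called (-0.37 ± 0.13 log2, adjusted p = 0.154). Another coding isoform, ENSMUST00000110356, fell by 0.76 ± 0.16 on the log2 scale (adjusted p = 0.0254). In Srsf2 the libraries were arranged in the same way, and the retained-intron transcript was at 51.7, 51.0, 50.2 and 52.3 CPM in vehicle and at 25.7, 62.9, 57.2 and 65.3 CPM in KU55933. The coding Srsf2 isoform ENSMUST00000092404 was at 68.6, 71.6, 88.4 and 90.3 CPM in vehicle and at 55.2, 64.2, 61.9 and 56.7 CPM in KU55933, with no overlap. It fell by 0.45 ± 0.10 on the log2 scale (adjusted p = 0.0351, and 0.143 with the offset).

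When only transcripts annotated as protein-coding were summed, a choice made after the data were seen, 16 of 43 members were called, 37.2% against 26.9% of all 14651 genes so tested. Of these, 7 were higher (against 10% of all genes) and 9 lower (against 16.8%). The lower genes then included 4 SR genes: Srsf4, Srsf2 (-0.42 ± 0.11 log2, adjusted p = 0.0181), Srsf5 (-0.37 log2, adjusted p = 0.0485) and Srsf9 (-2.04 ± 0.42 log2, adjusted p = 0.00971). Srsf7, an SR protein with a zinc knuckle, was called higher (0.28 ± 0.08 log2, adjusted p = 0.0318). Once the offset was added, 9 members were called, all lower, 20.9% of the members against 4.59% of all genes (higher 2.25%, lower 2.34%). They comprised the same 4 SR genes, 1 hnRNP gene and 4 snRNP genes. Without KU55933 replicate 1 the coding sum had 6 members higher and 6 lower, against 18.6% of all genes called (higher 4.99%, lower 13.6%), and Srsf2 and Srsf5 were no longer among the lower genes. In Srsf9, a small SR protein, the coding isoform ENSMUST00000031513 was at 7.15, 3.76, 11.5 and 14.6 CPM in vehicle and at 1.3, 1.10, 2.39 and 1.49 CPM in KU55933, which did not overlap. It fell by 2.56 ± 0.44 on the log2 scale (adjusted p = 0.0126, and 0.0415 with the offset). The Srsf9 isoform annotated for nonsense-mediated decay, ENSMUST00000209604, fell too, from 18.1, 17.6, 25.0 and 29.0 CPM to 11.6, 11.1, 10.3 and 13.3 CPM (-0.98 ± 0.17 log2, adjusted p = 0.0124). The most abundant Srsf9 transcript without a coding part, ENSMUST00000142318, was at 8.23, 12.5, 4.54 and 3.57 CPM in vehicle and at 13.1, 17.4, 15.5 and 16.5 CPM in KU55933. Its groups did not overlap, its level was not called (1.07 ± 0.38 log2, adjusted p = 0.155), and its usage was called higher by limma (adjusted p = 6.04e-05) but not by edgeR (adjusted p = 0.518). Both such transcripts of Srsf9 together held 7.33% to 41.4% of its counts in vehicle and 52.9% to 64.9% in KU55933, and the gene total was not called (-0.26 ± 0.12 log2, adjusted p = 0.136).

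Among the hnRNP genes, 3 rose, 1 fell and 16 did not pass the test, which is 20% called against 21.6% of all genes. Hnrnpc, which binds uridine-rich tracts in introns and limits the use of cryptic exons, was at 218, 204, 184 and 198 CPM in vehicle and at 278, 240.4, 247 and 264 CPM in KU55933. Every KU55933 library was above every vehicle library. It rose 1.28-fold, by 0.36 ± 0.08 log2 (adjusted p = 0.0099), and by 0.19 ± 0.08 log2 with the offset, where it was not called (adjusted p = 0.248). Genes within 1 percentage point of its 44.0% GC had a median difference of 0.19 log2, and 17.3% of those 1343 genes were called higher.

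The hnRNP H genes encode proteins that bind runs of guanosines near splice sites. Hnrnph2 was at 156, 155, 147 and 149.5 CPM in vehicle and at 199.9, 179, 167 and 175 CPM in KU55933. It rose by 0.25 ± 0.07 log2 (adjusted p = 0.0333). Hnrnph3 was at 36.7, 38.6, 38.2 and 39.4 CPM in vehicle and at 41.7, 49.8, 43.4 and 48.2 CPM in KU55933, and rose by 0.26 ± 0.08 log2 (adjusted p = 0.0352). The groups did not overlap in either gene, and with the offset the adjusted p was 0.668 for Hnrnph2 and 0.414 for Hnrnph3. Hnrnph2 lost its call without vehicle replicate 2, 3 or 4 or KU55933 replicate 1 or 2 (adjusted p up to 0.104), and Hnrnph3 without vehicle replicate 2, 3 or 4 or KU55933 replicate 2 or 4 (up to 0.0952). The related gene Hnrnph1 was not called in total (0.14 log2, adjusted p = 0.493).

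Hnrnpm, an abundant nuclear protein that binds guanosine- and uridine-rich sites, was the hnRNP gene that fell. It was at 117, 115, 122 and 136 CPM in vehicle and at 84.9, 102, 98.1 and 111 CPM in KU55933, which did not overlap. The change was -0.31 ± 0.09 log2 (adjusted p = 0.0393), and the call was lost without vehicle replicate 2, 3 or 4 or KU55933 replicate 1, 2 or 3 (adjusted p up to 0.121). Its coding isoform ENSMUST00000087582 was at 65.0, 59.6, 63.3 and 68.9 CPM in vehicle and at 41.5, 44.9, 45.7 and 46.8 CPM in KU55933. That isoform fell by 0.55 ± 0.07 on the log2 scale (adjusted p = 0.0048) and stayed called with the offset (adjusted p = 0.046). A scarcer isoform, ENSMUST00000148258, went the other way, from 2.63, 0.989, 1.39 and 1.88 CPM to 3.74, 5.07, 5.85 and 7.25 CPM, and rose by 1.63 ± 0.34 log2 (adjusted p = 0.0266).

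The hnRNP genes that did not pass the test in total included the most abundant one per length, Hnrnpa2b1. Hnrnpa2b1 was at 556, 524, 534 and 548 CPM in vehicle and at 551, 607, 573 and 638 CPM in KU55933, where the groups overlapped (0.13 ± 0.07 log2, adjusted p = 0.185). Hnrnpu, a scaffold protein of nuclear RNA and chromatin, differed by 0.03 ± 0.09 log2 (adjusted p = 0.825), and Hnrnpd, which binds AU-rich elements in messenger RNA, by 0.05 ± 0.12 log2 (adjusted p = 0.78). Both were named because their p lay nearest 1 in the family, not for their level. Hnrnpa3 was at 376, 403, 389.8 and 442 CPM in vehicle and at 383, 388, 338 and 354 CPM in KU55933. It differed by -0.14 ± 0.08 log2 (adjusted p = 0.206), and by -0.35 ± 0.07 log2 with the offset (adjusted p = 0.0447). Hnrnpa1 and Hnrnpk had all KU55933 libraries above all vehicle libraries and Hnrnpul1 all below, each without passing the test.

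Among single transcripts, 25 of 242 tested for the 3 families were called, 10.3% against 6.76% of all 45343 transcripts tested. Of these, 7 were higher (1.06% of all transcripts) and 18 lower (5.7%). With the offset 11 were called, 4.55% against 2.06%, 2 of them higher (1.05% of all) and 9 lower (1.01%). A transcript's share within its gene, its usage, was called for 13 of 240 member transcripts in 9 genes, 5.42% against 3.39% of all 40078 transcripts in the edgeR test, 3 higher (1.25% of all) and 10 lower (2.15%). Of the 13, 11 belonged to 7 hnRNP genes, 2 to SR genes and 0 to snRNP genes, where 4 transcripts had an unadjusted p under 0.05 and limma called 5. The limma test of usage called 29 members, 12.1% against 9.08%, and shared 11 of the 13 in the same direction. The counts are Salmon's estimates, and the uncertainty of dividing reads among isoforms that share exons is not part of these tests.

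Hnrnpa2b1 carried a shift among isoforms that end in different exons. Its main coding isoform ENSMUST00000203220 was at 293, 290.4, 269 and 273 CPM in vehicle and at 409, 386, 353 and 400.2 CPM in KU55933, and rose by 0.43 ± 0.08 log2 (adjusted p = 0.0151). The isoforms ENSMUST00000090002 and ENSMUST00000069949, which lack its last exon of 495 bases and end in other exons outside the coding part, both fell. ENSMUST00000090002 was at 84.3, 67.5, 68.1 and 67.7 CPM in vehicle and at 29.6, 26.0, 40.7 and 31.2 CPM in KU55933 (-1.20 ± 0.16 log2, adjusted p = 0.00535, and 0.0136 with the offset). ENSMUST00000069949 was at 24.4, 19.4, 45.3 and 47.1 CPM in vehicle and at 7.43, 8.31, 11.3 and 11.3 CPM in KU55933 (-1.85 ± 0.30 log2, adjusted p = 0.0107, and 0.0205 with the offset). Neither pair of groups overlapped. The usage of both also fell, with adjusted p of 4.79e-05 and 3.42e-06. The main isoform's share of the gene was 52.6%, 55.4%, 50.4% and 49.9% in vehicle and 74.3%, 63.6%, 61.7% and 62.8% in KU55933, although the edgeR usage test did not call it (adjusted p = 0.805).

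A further Hnrnpa2b1 isoform, ENSMUST00000204188, matches the main isoform except that it skips exon 8, a coding exon of 120 bases whose length is a multiple of 3. It was scarce, at 2.50, 2.52, 2.70 and 1.09 CPM in vehicle and at 10.5, 9.07, 7.50 and 6.18 CPM in KU55933. It rose by 1.88 ± 0.33 log2 (adjusted p = 0.0134, and 0.0403 with the offset), and its usage rose as well (adjusted p = 0.0138). The isoform ENSMUST00000069949, which fell, skips the same exon but ends elsewhere. The skipped exon (chromosome 6, minus strand, GENCODE M21) is printed in capitals between 15 bases of each neighbouring exon. It encodes part of the glycine-rich region of the protein.
Hnrnpa2b1 exon 8: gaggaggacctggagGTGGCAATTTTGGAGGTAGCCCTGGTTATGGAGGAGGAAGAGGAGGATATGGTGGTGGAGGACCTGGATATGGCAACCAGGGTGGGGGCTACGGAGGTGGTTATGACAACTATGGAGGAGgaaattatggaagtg

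**Figure D5:**
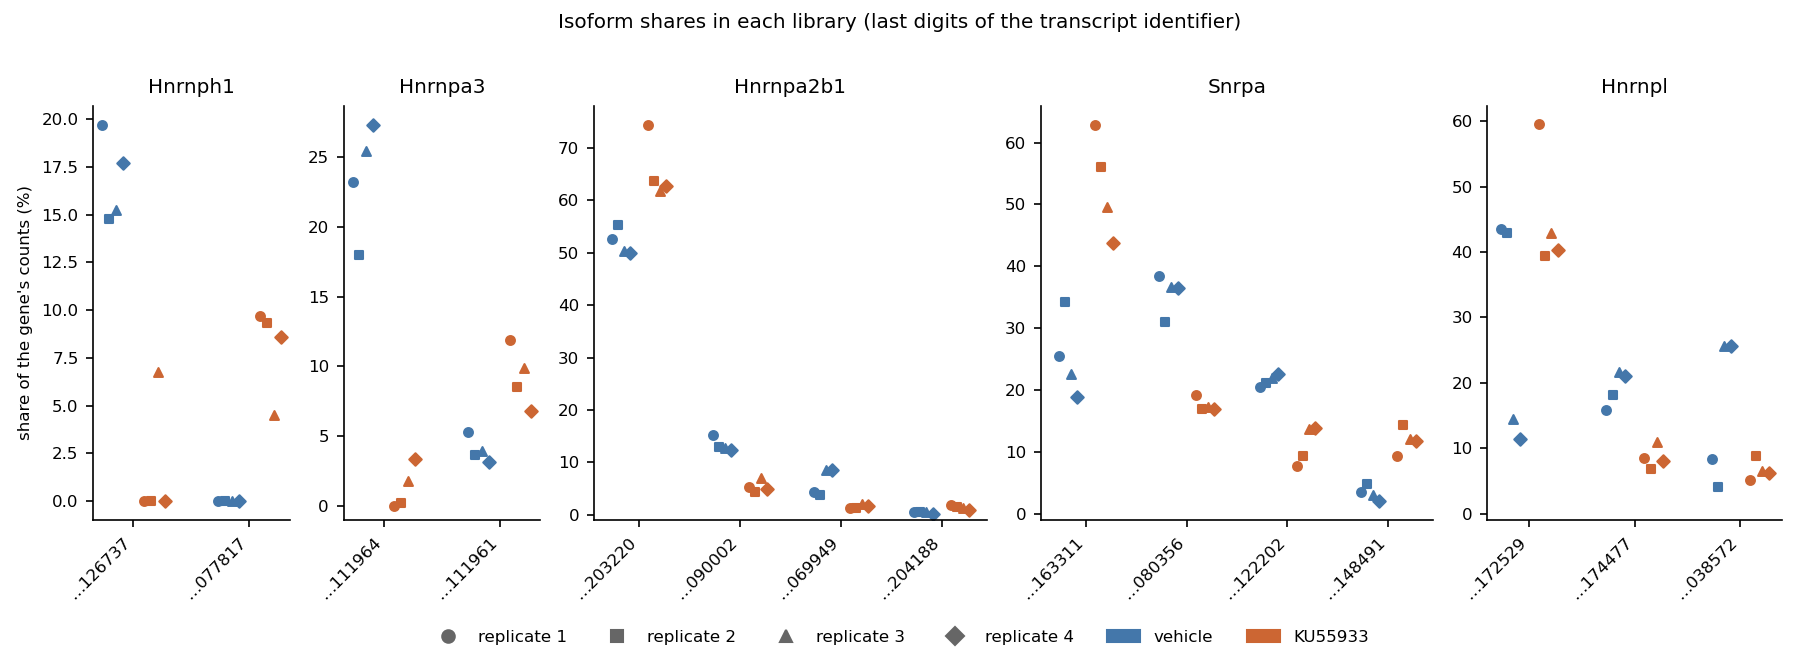
Share of the gene's counts, in percent, on named isoforms of Hnrnph1, Hnrnpa3, Hnrnpa2b1, Snrpa and Hnrnpl in each library, with isoforms identified by the last digits of their identifiers. The main Hnrnpa2b1 isoform holds 49.9% to 55.4% in vehicle and 61.7% to 74.3% in KU55933, and ENSMUST00000077817 of Hnrnph1 is at 0 in all 4 vehicle libraries.

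Hnrnph1 showed an exchange between isoforms. The coding isoform ENSMUST00000077817 had 0 counts in all 4 vehicle libraries and was at 21.5, 32.2, 14.7 and 32.6 CPM in KU55933. Set against a floor of 3 counts per library, this is at least 352-fold higher in estimated counts. That bound does not cover the division of reads among isoforms that share exons. It made up 9.67%, 9.30%, 4.48% and 8.57% of the gene's counts in KU55933, and its usage was called higher (adjusted p = 6.37e-09). The noncoding transcript ENSMUST00000126737, which keeps 2 introns, was at 60.6, 42.5, 40.4 and 52.6 CPM in vehicle and at 0, 0, 22.2 and 0 CPM in KU55933. Its usage fell by 3.26 on the log2 scale (adjusted p = 0.000242), while its level was not called (adjusted p = 0.365). The main isoform ENSMUST00000069304 was at 136, 141, 119 and 135 CPM in vehicle and at 132, 100.1, 119.9 and 117 CPM in KU55933, and the groups overlapped. Both ENSMUST00000077817 and ENSMUST00000126737 lack exon 13 of the main isoform, 50 bases on chromosome 11, printed in capitals between 15 bases of its neighbours (GENCODE M21). Reads over that exon are among those that place a fragment on the main isoform.
Hnrnph1 exon 13: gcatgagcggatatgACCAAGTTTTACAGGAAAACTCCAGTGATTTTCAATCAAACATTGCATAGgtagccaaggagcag

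Hnrnpa3 used less of an isoform with a short last exon. ENSMUST00000111964, whose last exon has 442 bases where that of the main isoform has 4010, was at 87.3, 72.6, 99.1 and 121 CPM in vehicle and at 0, 0.761, 6.12 and 11.9 CPM in KU55933. Its share of the gene was 18% to 27.3% in vehicle and 0% to 3.35% in KU55933. Its usage was called lower (adjusted p = 5.39e-06), while the test of its level missed the threshold (-4.38 ± 1.1 log2, adjusted p = 0.0568). A second isoform, ENSMUST00000111961, skips a coding exon of 81 bases and keeps 42 of the 144 bases of the next one. Its last exon is also shorter than that of the main isoform, 724 against 4010 bases. This second isoform rose from 20, 14.7, 15.3 and 14 CPM to 45.4, 33.0, 33.5 and 24.0 CPM (1.06 ± 0.21 log2, adjusted p = 0.0236, and 0.123 with the offset). In Hnrnpll, a splicing regulator known from lymphocyte activation, the isoform ENSMUST00000061331 was at 1.65, 2.74, 5.30 and 5.50 CPM in vehicle. It had 0 counts in all KU55933 libraries, at least 45.1-fold lower in estimated counts against a floor of 3 counts per library. That isoform differs from the main one in the length of its first exon, 678 against 571 bases, and by 1 base at the junction of exons 4 and 5, so that few reads can tell them apart.

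In other hnRNP genes the vehicle libraries did not hold together. Hnrnpl, which binds CA repeats, had the coding isoform ENSMUST00000174477 at 24.9, 35.6, 43.0 and 45.3 CPM in vehicle and at 12, 13.4, 18.4 and 14.4 CPM in KU55933, and it fell by 1.38 ± 0.20 on the log2 scale (adjusted p = 0.00719). Its isoform ENSMUST00000172529, in contrast, was at 68.7 and 84.7 CPM in vehicle replicates 1 and 2 and at 28.8 and 24.5 CPM in replicates 3 and 4, and ENSMUST00000038572 showed the opposite split of the vehicle group, 13.1 and 8.14 against 51.0 and 55.5 CPM. The KU55933 libraries were at 72.1 to 84.8 CPM and at 7.31 to 17.6 CPM for these isoforms, on the side of vehicle replicates 1 and 2. Hnrnpdl isoform ENSMUST00000086900 split in the same way, at 1.82 and 1.21 against 9.92 and 11.3 CPM in vehicle and 0.225 to 0.902 CPM in KU55933. Its level was called lower (-3.44 ± 0.85 log2, adjusted p = 0.0498). Its usage, a different measure, was not called by limma (adjusted p = 0.123).

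Of the 12 snRNP genes tested, 4 fell and 8 missed the threshold, which is 33.3% called. Of all genes, 21.6% were called and 14.6% were lower. The 4 have 2 roles, as proteins particular to the U1 particle, which pairs with the start of an intron, and as proteins of the shared Sm ring. Snrpc, the U1 C protein that steadies pairing with the 5′ splice site, was at 20.4, 21, 20.5 and 21.2 CPM in vehicle and at 14.8, 13.5, 13.9 and 14.3 CPM in KU55933. Replicates lay close together and the groups far apart. The change was -0.55 ± 0.08 log2 (adjusted p = 0.000942), 1.47-fold lower, and -0.43 ± 0.07 log2 with the offset (adjusted p = 0.0147). Snrpa, the U1 A protein that binds a stem-loop of U1 RNA, was at 46.5, 48.8, 48.9 and 52.3 CPM in vehicle and at 28.9, 28.9, 35.2 and 36.6 CPM in KU55933, without overlap. It fell 1.52-fold, by 0.60 ± 0.09 on the log2 scale (adjusted p = 0.00189). Snrnp70, the remaining U1-specific protein, whose symbol is outside the rule, was at 268 to 478 CPM in vehicle and 121 to 332 CPM in KU55933 and was not called (-0.69 ± 0.30 log2, adjusted p = 0.123).

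In the Sm ring, Snrpb and Snrpf fell. Snrpb, which encodes the B proteins, was at 52.3, 59.5, 51.4 and 54.3 CPM in vehicle and at 30, 23.7, 31.9 and 32.4 CPM in KU55933. The groups were far apart. It fell 1.84-fold, by 0.88 ± 0.10 on the log2 scale (adjusted p = 0.000572), and by 0.42 ± 0.08 with the offset (adjusted p = 0.0297). Of the 1258 genes within 1 percentage point of its 57.8% GC, 54.7% were called lower, with a median of -0.44 log2. Snrpf was at 7.72, 8.63, 13.2 and 12.5 CPM in vehicle and at 7.49, 6.14, 6.04 and 7.30 CPM in KU55933. Vehicle replicates 1 and 2 lay close to the KU55933 libraries and replicates 3 and 4 well above. The change was -0.64 ± 0.18 log2 (adjusted p = 0.0296), and -0.82 ± 0.17 log2 with the offset (adjusted p = 0.0415). At its GC content of 41.3%, 927 genes had a median of 0.23 log2, and 0.108% of them were called lower. The call for Snrpf was lost without vehicle replicate 3 or 4 or KU55933 replicate 2 or 3 (adjusted p up to 0.0936).

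The other Sm genes did not follow. Snrpd1, Snrpd2, Snrpd3, Snrpe and Snrpg were not called, with differences of -0.10 to 0.20 log2, and neither was Snrpn. Snrpn was at 748, 785, 699 and 679 CPM in vehicle and at 784, 627, 721 and 754 CPM in KU55933, with broad overlap (-0.01 ± 0.09 log2, adjusted p = 0.93). Snrpg was at 12.9, 12.2, 12.2 and 12.3 CPM in vehicle and at 15.5, 11.5, 12 and 12 CPM in KU55933 (0.04 ± 0.11 log2, adjusted p = 0.81). The proteins particular to the U2 particle, which binds the branch point, pointed in opposite directions without passing the test, Snrpa1 at -0.29 ± 0.11 log2 (adjusted p = 0.0818) and Snrpb2 at 0.23 ± 0.08 log2 (adjusted p = 0.0691). In the assembled particle the ring proteins are present in equal number, and whether the difference between Snrpb or Snrpf and the other ring genes exceeds their error was not tested.

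Both Snrpa isoforms that were called lower start upstream. Of its 4 isoforms annotated as protein-coding, 3 share 1 coding part and differ in their first exon. ENSMUST00000080356 was at 17.8, 15.2, 17.9 and 19.1 CPM in vehicle and at 5.56, 4.88, 6.09 and 6.20 CPM in KU55933 (-1.65 ± 0.13 log2, adjusted p = 0.00136, and 0.00961 with the offset). ENSMUST00000122202 was at 9.54, 10.3, 10.7 and 11.8 CPM in vehicle and at 2.22, 2.71, 4.82 and 5.05 CPM in KU55933 (-1.55 ± 0.27 log2, adjusted p = 0.0139, and 0.0502 with the offset). ENSMUST00000163311 was at 11.8, 16.7, 11.1 and 9.87 CPM in vehicle and at 18.2, 16.2, 17.5 and 16.0 CPM in KU55933, overlapping through vehicle replicate 2, and was not called (0.42 ± 0.18 log2, adjusted p = 0.24). Its share of the gene's counts was 25.4%, 34.3%, 22.6% and 18.9% in vehicle and 62.9%, 56%, 49.5% and 43.7% in KU55933, without overlap. The limma test of usage called its share higher (adjusted p = 0.000163), while the edgeR test of usage did not (adjusted p = 0.346). The remaining isoform, ENSMUST00000126211, whose coding part differs, was at 4.96, 3.88, 7.24 and 9.69 CPM in vehicle and at 0, 0, 1.89 and 4.54 CPM in KU55933. KU55933 replicate 4 overlapped the vehicle libraries, and the level was not called (-2.04 ± 1.33 log2, adjusted p = 0.462). Its usage was called lower by limma (adjusted p = 0.00159) and not by edgeR (adjusted p = 0.479). The retained-intron transcript ENSMUST00000148491 rose, from 1.62, 2.37, 1.51 and 1.1 CPM to 2.72, 4.14, 4.28 and 4.31 CPM (1.18 ± 0.29 log2, adjusted p = 0.0491, and 0.0644 with the offset). In the edgeR test of levels it was the single retained-intron transcript called among 63 tested in the 3 families, while limma-voom called 1 snRNP and 1 hnRNP transcript higher. Over all genes, the edgeR test called 66 of 10256 retained-intron transcripts higher and 168 lower. A single call among 63 is therefore not read as a feature of these families.

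The isoforms map onto separate start sites, and the sequence around each is printed because both isoforms that were called lower begin at or near one of them. ENSMUST00000080356 begins at the first base of the upstream RefSeq start and ENSMUST00000122202 begins 26 bases downstream of that base. ENSMUST00000163311 and ENSMUST00000126211 begin at the downstream start, 511 bases further along. Each window runs from 250 bases before to 50 bases after the start on the minus strand of GRCm38.p6, the build of the RefSeq table, at chr7:27196222-27196521 (upstream) and chr7:27195711-27196010 (downstream). Capitals mark matches, on either strand, to the letters CCAAT of the CCAAT box, to the ETS-family core CGGAAG, to the E-box CACGTG and to the GC box GGGCGG. No 2 of these matches overlap in the windows shown.
Snrpa upstream start: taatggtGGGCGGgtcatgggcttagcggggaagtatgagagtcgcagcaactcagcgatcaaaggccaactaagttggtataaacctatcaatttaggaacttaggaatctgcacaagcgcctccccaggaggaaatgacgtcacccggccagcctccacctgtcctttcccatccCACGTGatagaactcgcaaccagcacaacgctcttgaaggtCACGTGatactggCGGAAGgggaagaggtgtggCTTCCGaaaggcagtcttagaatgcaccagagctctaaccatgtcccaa
Snrpa downstream start: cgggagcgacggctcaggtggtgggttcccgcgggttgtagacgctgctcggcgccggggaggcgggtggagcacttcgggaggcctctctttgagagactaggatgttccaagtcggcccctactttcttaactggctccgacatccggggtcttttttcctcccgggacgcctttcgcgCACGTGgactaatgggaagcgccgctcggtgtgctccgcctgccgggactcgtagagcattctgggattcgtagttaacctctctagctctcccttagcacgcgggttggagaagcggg
The upstream window has GGGCGG once, CACGTG at 2 places and CGGAAG at 2 places, and the downstream window has CACGTG once. Among 32851 RefSeq mouse promoters of the same length, CCAAT was found in 37.4%, CGGAAG in 16.9%, CACGTG in 7.15% and GGGCGG in 35.7%. Of 55 promoters matched for 39 of the members, 25 held CCAAT, 23 CGGAAG, 7 CACGTG and 39 GGGCGG. These are matches of letters, and no binding was measured.

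The major coding isoform of Snrpb followed its gene. ENSMUST00000103199 was at 48.8, 55.8, 49.1 and 50.2 CPM in vehicle and at 28.0, 21.7, 27.9 and 28.8 CPM in KU55933, and fell by 0.97 ± 0.11 on the log2 scale (adjusted p = 0.00374, and 0.331 with the offset). In Srsf5 the short transcript ENSMUST00000152662, annotated without a coding part, fell from 13.0, 16.0, 18.5 and 16.7 CPM to 3.48, 4.88, 6.31 and 7.42 CPM (-1.57 ± 0.23 log2, adjusted p = 0.0075, and 0.00443 with the offset). The groups did not overlap in either transcript, and the usage of the Srsf5 transcript was also called lower (adjusted p = 0.0442).

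Other genes of the splicing pathway were examined as lists by role, and their counts are read against 6.92% higher and 14.6% lower over all genes, or 0.691% and 1.3% with the offset. The lists hold 7 to 26 tested genes each, so that 1 gene moves a list's share by several percentage points. Of 9 kinases that phosphorylate SR proteins, 1 was higher (Srpk2, 0.25 log2) and 1 lower (Dyrk1b, -0.84 log2), and neither was called with the offset, while Clk1 and Clk4 were not called and were lowest in KU55933 replicate 1 at 76.6 and 39.1 CPM. Of 12 SR-related proteins, 0 were higher and 3 lower, Scaf1 (-1.15 log2), Srrm3 (-0.54 log2) and Rnps1 (-0.41 log2), and only Rnps1 was called with the offset (adjusted p = 0.0133). Of 10 SF3 subunits of the U2 particle, 1 was higher and 3 lower. Sf3b5, the smallest subunit, was at 14.8, 15.1, 21.6 and 21 CPM in vehicle and at 7.02, 4.48, 6.6 and 7.45 CPM in KU55933, well separated, and fell by 1.5 ± 0.18 on the log2 scale, or by 1.66 with the offset (adjusted p = 0.00395). Of 10 LSm proteins, which form the ring on U6 RNA or act in messenger RNA decay, 1 was higher and 2 lower, and Lsm7 stayed called with the offset (-0.66 log2, adjusted p = 0.0161).

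Of 26 tested tissue-specific regulators, 4 were higher and 5 lower, and 0 and 3 with the offset, against the same shares over all genes (6.92% and 14.6%, or 0.691% and 1.3% with the offset). Rbfox3, the neuronal nuclear antigen NeuN, fell by 0.85 ± 0.09 on the log2 scale, or by 0.42 with the offset. Among 21 proteins of the U1, U4/U6.U5 and minor particles 0 were higher and 1 lower, and among 7 factors that recognise the 3′ splice site 0 were higher and 2 lower. Of 15 nonsense-mediated decay factors, 3 were higher and 3 lower, and 0 with the offset. Of 14 proteins of the SMN complex, which assembles the Sm ring, 0 were called by edgeR or DESeq2, and 3 were higher at an unadjusted p under 0.05. The list medians lay between -0.19 and 0.12 log2, against 0.01 over all genes.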

How the data were processed

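Total RNA from 8 hippocampus samples was sequenced after stranded mRNA library preparation (TruSeq kit), per the labels' protocols. The authors deposited 1 table of transcript-level estimated counts made with Salmon 1.4.0, with genome build GRCm39 and FastQC 0.11.9 also named in the submitters' processing notes, which list DESeq2 1.32.0 as well. The values are whole numbers and were used as deposited, with no further rounding. Of the listed transcripts, 99.7% (99.8% of counts) matched GENCODE M21, an annotation of the older build GRCm38, which gave GC content, length, exons and junctions, and no coordinates were carried between builds.

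Counts were summed per gene and tested with edgeR 4.0.16 in R 4.3.3 (filterByExpr, TMM scaling, robust quasi-likelihood F test, Benjamini-Hochberg adjustment over all genes or transcripts tested, threshold 0.05). Fold changes in log2 used edgeR's prior count, and standard errors are the log2 change over the square root of F. CPM values divide counts by TMM-scaled library size, and TPM values were computed per annotated length. Isoform usage was tested with edgeR's diffSpliceDGE, and with limma 3.58.1. The offset fits GC content (6 spline degrees of freedom) and log length (5) per library. Alternatives were DESeq2 1.42.0, limma-voom, RLE scaling, other filters, a threshold of 0.1, a replicate block and leaving out libraries; protein-coding transcripts alone and limma usage with the GC correction were added after seeing the data. The offset for edgeR usage was not run. The scripts were tested on simulated data.

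Named members were every called one and, in each family, the most abundant per length, the 3 with the smallest p and the 2 with p nearest 1, and named isoforms were the most abundant of each such member and up to 12 called ones of at least 1 CPM with the smallest p. Up to 3 called genes were named per other list. Further members, isoforms and list genes in the text (such as Srsf2, Srsf9, Hnrnpa3, Snrnp70 and Clk1) were chosen after their values were seen. The members and lists were chosen with earlier results of these data known. No label says that the 4 samples of a group are separate animals beyond n = 4, so p-values measure the spread between these samples, which may be partly technical. No 2 libraries of the same group agreed within sampling noise, and pairs across the groups were not examined for this. Counts without molecular identifiers are not independent molecules, so counting precision covers counting error only.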

Additional observations from a re-analysis of the deposited data

Results flagged for a closer look

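Among 44 groups of 4 libraries examined, 2 held a library whose gap to the nearest other one, taken over the range of the group, passed the 95% limit of Dixon, and chance gives such a gap in about 5% of groups. Srsf10 was at 92.2 CPM in vehicle replicate 1 and at 73.7 to 74.5 CPM in the other vehicle libraries, so that this library narrowed the difference from KU55933. Snrpg was at 15.5 CPM in KU55933 replicate 1, one of the 2 libraries high in choroid plexus markers, and at 11.5 to 12 CPM in the other KU55933 libraries.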

How the results depend on the processing

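Of 152 recomputed counts, 90 stayed within 1.5 times their reported value and 62 did not. Over all genes the 3338 calls became 5085 at a threshold of 0.1, 308 with the GC and length offset, 672 with that offset on protein-coding transcripts and 1090 without KU55933 1 and 2 together; leaving out 1 library gave 78 (with the offset) to 4348. Members called higher (5) became 0 with the offset, also on protein-coding transcripts, and 2 without KU55933 1 and 2, with 0 to 6 on leaving out 1 library; members called lower (6) became 9 on protein-coding transcripts, with or without the offset, and ranged from 0 to 8 on leaving out 1 library. Transcripts called (3065) became 935 with the offset and 1446 to 3018 without 1 library; member transcripts higher (7) became 2 with the offset and 2 to 13 without 1 library, and lower (18) became 9 and 10 to 21. Usage calls rose from 1359 to 3639 with limma-voom, or 2818 with GC correction, and among members from 13 to 29 or 25, with 7 to 15 without 1 library. The causes were not tested.

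The deviations of vehicle and KU55933 samples with the same number were all positively correlated, weakly for numbers 2 and 3 (r = 0.29, 0.084, 0.039 and 0.20 over genes). The number was not used to pair samples in the main test, and whether samples with the same number shared a batch was not tested. With the replicate number as a block, 4444 genes were called (5 members higher, 9 lower), 816 with the offset (0 members higher, 8 lower), and 1845 transcripts. KU55933 replicates 1 and 4 correlated best with the vehicle replicate of the same number. KU55933 replicate 2 correlated best with vehicle replicate 4 and KU55933 replicate 3 with vehicle replicate 1.

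None of the 11 called members changed sign under any alternative run. Of 522 recomputed values of the 18 members named by rule, 131 lost their call, 2 gained one and 77 changed sign, all of the last among the 7 uncalled genes of the 18. Uncalled members outside the 18 also changed sign with the offset, such as Srsf1 (0.07 to -0.13 log2), Hnrnpa1 (0.14 to -0.02) and Hnrnpk (0.13 to -0.05). With the offset the log2 differences were -0.13 (Srsf6), -0.035 (Hnrnpa2b1), -0.17 (Hnrnpu), -0.15 (Hnrnpd) and -0.050 (Snrpg), and with block and offset -0.18, -0.036, -0.17, -0.14 and -0.055 in the same order. With the offset on protein-coding transcripts they were -0.24, -0.038, -0.11, -0.22 and -0.19, and on protein-coding transcripts alone -0.026 (Srsf6), -0.011 (Hnrnpd) and -0.10 (Snrpg). Srsf6 was at -0.030 with the block and -0.031 with limma-voom. Without KU55933 1 and 2 the values were 0.23 (Srsf5), -0.14 (Hnrnpd), 0.023 (Snrpn) and -0.045 (Snrpg). Leaving out 1 library, with or without the offset or on coding transcripts, gave -0.35 to 0.18 (Srsf5), -0.29 to 0.20 (Srsf6), -0.060 to 0.16 (Hnrnpa2b1), -0.25 to 0.19 (Hnrnpu), -0.24 to 0.14 (Hnrnpd), -0.20 to 0.045 (Snrpn) and -0.21 to 0.084 (Snrpg).

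The lowest members, such as Snrpf at 218 to 545 counts per library, and isoforms under 10 CPM carry the largest counting error. Having 4 libraries a group limits the detection of small changes, and isoform counts are estimates whose assignment error was not used.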
